A study of Mus musculus with 4 samples.

Results

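Multi-exon noncoding transcripts are the assembled RNAs of 2 or more exons whose introns matched a mouse gene of a noncoding biotype, or no annotated gene at all. Introns were matched by runs of exon and intron lengths and, where no run matched, by length and distance or by length alone (122633, 4980 and 598 of 137519 introns). H19, Meg3, Gas5 and the genes named Snhg were left out. The rule found 2986 loci with 6740 transcripts, of 15421 multi-exon genes and loci with 86663 transcripts in all. Of these loci, 572 matched an annotated noncoding gene (lincRNA, antisense, processed transcript or bidirectional promoter), 26 matched a gene that GENCODE lists as noncoding and RefSeq as protein-coding, and 2388 matched no annotated gene. The 572 annotated noncoding genes carry most of the account below.

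C2C12 is an established line of mouse myoblasts, muscle precursor cells that stop dividing and fuse into myotubes when serum is lowered. Polyadenylated RNA was sequenced as paired ends from C2C12 cells growing in high serum (-24 h, called growth here) and 60, 120 or 168 h into culture in low-serum medium, with 1 library for each time point. All 4 libraries share the cell line, given as strain C57BL/6, and the labels name no other treatment and no clone or passage. With no replicates there is no test and no p-value. Library sizes were 28513976, 48228886, 24488681 and 43845262 fragments in growth and at 60, 120 and 168 h. Most muscle genes looked at were lowest in growth, but not all rose through the labelled order. Myogenin (Myog) stood at 16.9 ± 1.27, 399 ± 3.08, 488 ± 6.92 and 326 ± 4.42 FPKM in the order of time. The myosin gene Myh3 likewise went from 5.98 ± 2.09 in growth to 801 ± 18.7 at 120 h and 522 ± 9.34 at 168 h. Muscle creatine kinase (Ckm) was assembled in the 3 later libraries and not in growth, and Ckm and desmin (Des) were highest at 168 h. Myod1 was lowest at 168 h, with 193 ± 3.86 FPKM in growth and 86.1 ± 2.06 at 168 h.

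Long noncoding RNAs are not translated into a known protein, and many, but not all, are spliced and polyadenylated like messenger RNAs. Some act in the nucleus, such as Xist, which coats the inactive X chromosome, and Neat1, the scaffold of paraspeckles. Others are the precursors from which microRNAs or small nucleolar RNAs are cut, and many start next to a protein-coding gene on the opposite strand. In muscle, the microRNAs of the miR-1/miR-206 and miR-133 families are induced during differentiation and are cut from such transcripts.

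Of the 572 annotated noncoding genes, 11 hold 24 microRNA genes, with 5 hairpins in annotated exons and 19 in introns. They give 41 mature microRNAs by name in RefSeq (GRCm38.p6), some with the same sequence, with 31 seeds. The sequences below are those of the hosts described next, and capitals mark the seed, bases 2 to 8, which pairs with targets. The libraries measured the host transcripts, not the mature microRNAs.
mmu-miR-206-3p: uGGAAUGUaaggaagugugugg
mmu-miR-133b-3p: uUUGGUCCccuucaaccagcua
mmu-miR-31-5p: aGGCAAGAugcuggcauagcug
mmu-miR-100-5p: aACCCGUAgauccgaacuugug
mmu-miR-99a-5p: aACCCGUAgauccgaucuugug
mmu-let-7c-5p: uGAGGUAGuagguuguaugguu
mmu-let-7b-5p: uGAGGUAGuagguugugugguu
mmu-miR-125b-5p: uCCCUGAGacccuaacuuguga
mmu-miR-16-5p: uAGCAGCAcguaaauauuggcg
miR-100-5p and miR-99a-5p share the seed ACCCGUA although they come from separate hosts, 3110039I08Rik and Mir99ahg. let-7c-5p and let-7b-5p share GAGGUAG and come from Lncppara, with a second copy of let-7c in Mir99ahg.

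The host of miR-206 and miR-133b, Gm28653, showed the largest difference among the hosts. It is known as linc-MD1, was assembled on chr1:20660117-20674371 in the coordinates of the files, and holds Mir206 in an intron and Mir133b in an exon of the annotation. No spliced transcript was assembled in growth, and it reached 31.8 ± 0.997, 31.8 ± 1.82 and 15.7 ± 0.958 FPKM at 60, 120 and 168 h. FPKM is the number of fragments for each kilobase of a transcript, divided by the size of the library, and ± is here the distance from the value to its deposited limit, 2 square roots of the fragment count for a single transcript. All 3 later libraries stood apart from growth, and 168 h lay below the 2 before it, with a log2 ratio of -0.97 to 120 h, just short of a call. A single-exon transcript over the same exons gave 4.10 FPKM in growth, so the RNA was not absent there. In these bulk RNAs, fewer cells with a transcript and less of it per cell cannot be told apart.

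The other hosts found by the position of a hairpin had at most 6.18 FPKM, in 2900076A07Rik. AL805899.1, whose exon holds Mir31, was assembled at 168 h alone, with 2.33 ± 0.473 FPKM. Dleu2, the host of Mir16-1 beside a chromosome region deleted in leukaemia, had 2.61 ± 1.26 FPKM in growth and 0.511 ± 0.386 at 60 h and was not assembled later. The difference at 60 h was -0.85 on the log2 scale over the union of its exons, short of a call. The host of Mir100, Mirlet7a-2 and Mir125b-1, 3110039I08Rik, had 4.31 ± 0.732, 2.79 ± 0.357, 2.13 ± 0.441 and 1.79 ± 0.380 FPKM, in the order of time. These values were highest in growth, but the difference stayed under 2-fold on the log2(FPKM + 1) scale used for calls. Lncppara, with Mirlet7c-2 and Mirlet7b in exons, had 1.72 ± 0.556, 1.69 ± 0.164, 1.04 ± 0.649 and 3.12 ± 0.694 FPKM. It was called higher at 168 h than at 120 h, and this call was lost when all fragments over the union of its exons were counted (log2 ratio 0.39). Mir99ahg (Mir99a and Mirlet7c-1) and Gm4258 (Mir181a-1 and Mir181b-1) stayed under 2 FPKM in every library. 2900076A07Rik, with Mir1839 in an exon, had 3.04 ± 0.829, 3.20 ± 0.975, 4.44 ± 1.18 and 6.18 ± 1.08 FPKM, and growth and 168 h did not overlap. A separate list of microRNA hosts, chosen by name and including Pvt1 and Carmn, had 44 names. By symbol, 8 were matched to an assembled gene, 6 of them at 2 FPKM or more. Lists here and below count a name as assembled only on such a match. AL805899.1, Lncppara and Gm4258 were not matched to the list's Mir31hg, Mirlet7bhg and Mir181a-1hg, so the counts leave them out. At 60 h 1 of the 8 was called higher than growth (Gm28653) and 1 lower (Dleu2), beside 14.1% and 13.5% of all multi-exon genes and loci. Of the 7 assembled in both libraries 0 were higher and 1 lower, beside 7.84% and 13.3%. These shares are near the background, with the list's median log2 ratio at -0.11, beside -0.08 for all multi-exon genes and loci.

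**Figure D1:**
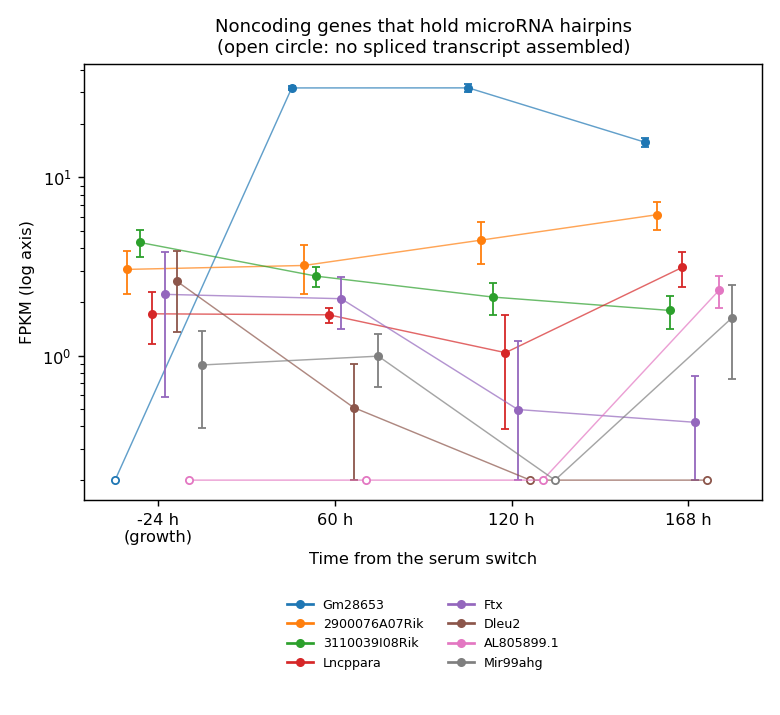
FPKM (log axis) of 8 noncoding genes that hold microRNA hairpins, in the 4 libraries. Bars reach to the deposited limits, cut at the lower edge of the plot, and open circles mark libraries without a spliced transcript. Gm28653 goes from no spliced transcript in growth to 31.8 FPKM at 60 h, while the other hosts plotted stay under 10 FPKM.

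The annotated noncoding genes were scarce beside protein-coding ones. A spliced transcript was assembled for 252, 417, 329 and 387 of the 572 genes in growth and at 60, 120 and 168 h, and 131 were assembled in all 4 libraries. Their median level where assembled was 1.71, 1.09, 1.63 and 1.18 FPKM, beside 11.4, 9.09, 10.1 and 8.82 FPKM for protein-coding genes. Their limits lay at a median of 42.4%, 38.1%, 48.5% and 40% of the value away from it, so a difference of 2-fold could often not be seen at this depth. Counts of assembled genes were highest in the 2 deepest libraries, those of 60 and 168 h, and growth had fewer than 120 h although it was deeper. In 211 genes the highest level was under 1 FPKM, in 320 between 1 and 10, in 37 between 10 and 100 and in 4 at 100 or more.

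**Figure D2:**
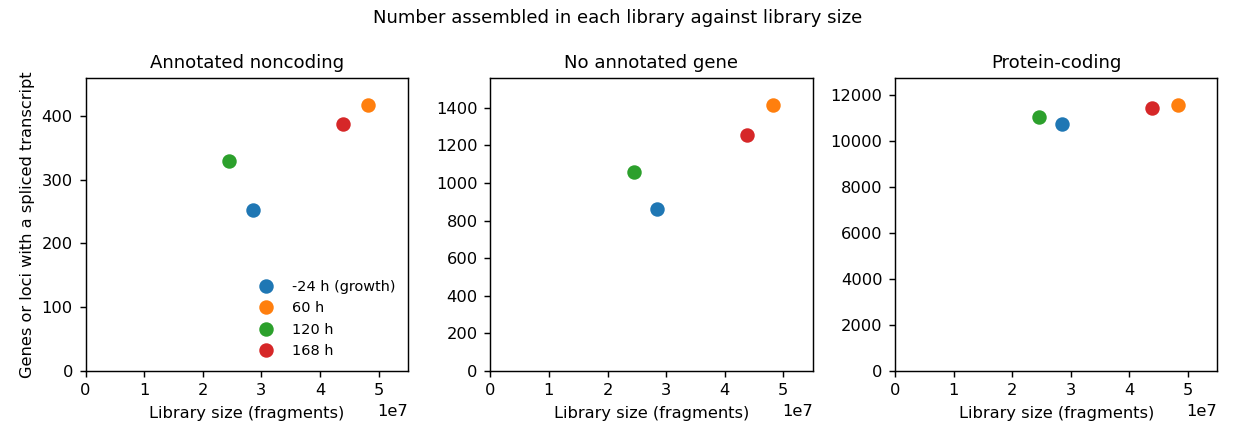
Number of genes or loci with an assembled spliced transcript (vertical axis) against library size in fragments (horizontal axis), 1 point for each library. The 60 h library, the largest, has the most in each class (417 annotated noncoding genes), and growth has the fewest (252), below the smaller 120 h library (329).

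Not being assembled is not the same as absence. Of 53 annotated noncoding genes with at least 5 FPKM in 2 or more libraries, 10 (18.9%) lacked a spliced transcript in another library. For protein-coding genes of at least 50 FPKM the count was 56 of 1562 (3.59%). Gm15564, on chr16 next to the start of Kpna1, is an extreme case. It had 1436 ± 22.3 FPKM at 60 h, the highest level among the annotated noncoding genes, and no transcript of any kind in the other 3 libraries. Counts of calls are therefore given over all genes and over those assembled in both libraries.

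The switch from growth to 60 h gave more calls than the later steps. A gene was called higher or lower where it differed at least 2-fold on log2(FPKM + 1), was present with 1 FPKM or more in the higher of the libraries and had limits that did not overlap. A library without a spliced transcript entered with a value and a limit of 0, which allows for no counting error. At 60 h 88 of 467 annotated noncoding genes (18.8%) were called higher than in growth and 39 (8.35%) lower. Among all 14275 multi-exon genes and loci, 14.1% were called higher and 13.5% lower. Over the 202 annotated noncoding genes assembled in both libraries, 16 (7.92%) were called higher and 15 (7.43%) lower, beside 7.84% and 13.3% of all 11184 such genes and loci. The higher count over all genes thus came mostly from the 215 genes assembled at 60 h and not in growth, and library size differed between the 2. At matched levels, 1 to 10 FPKM in the higher library and assembled in both, 7.33% of 150 noncoding genes were called higher and 6% lower. Of 3907 protein-coding genes at those levels 5.32% were called higher and 9.93% lower. The median log2 ratio of annotated noncoding genes assembled in both was -0.04, and that of protein-coding genes -0.21.

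**Figure D3:**
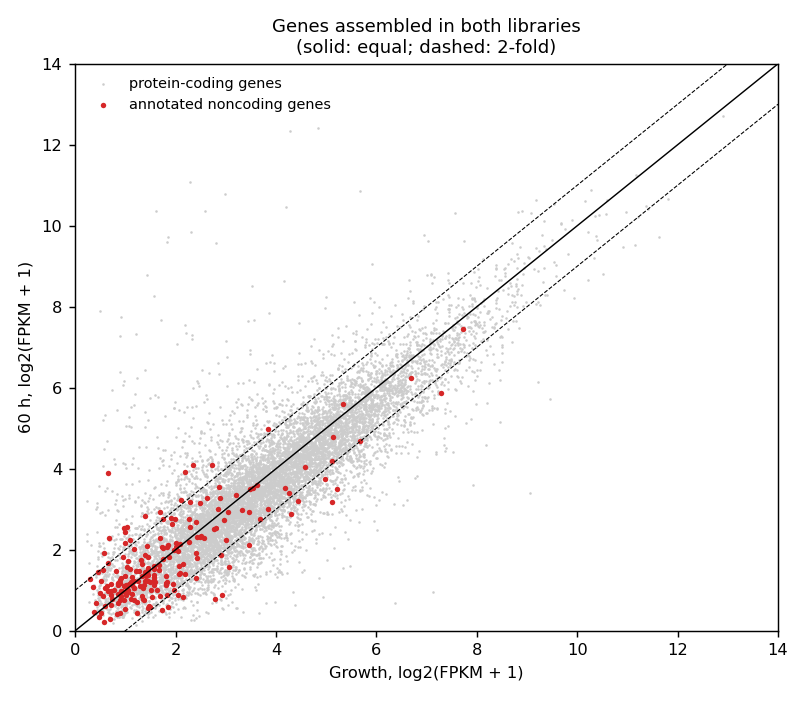
Level of each gene at 60 h (vertical axis) against growth (horizontal axis), both as log2(FPKM + 1), for genes assembled in both libraries: 202 annotated noncoding genes in red and 10377 protein-coding genes in grey. Solid and dashed lines mark equal levels and 2-fold differences, and most noncoding genes lie at the low end between the dashed lines.

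Of the 88 genes assembled in the 3 later libraries and not in growth, the 6 with the highest levels were Gm28653, described above, and 5 whose roles are not described here. 5430431A17Rik, on chr7:51740245-51740898 and near Emc10, had 23.7 ± 1.95, 27 ± 3.19 and 13.3 ± 1.57 FPKM. Gm38534, on chr11:88066811-88070496, had 14.1 ± 0.793, 23.7 ± 1.41 and 14.4 ± 0.817 FPKM. Gm32618, on chr15:32708624-32725143 near Sema5a, had 14.5 ± 2.54, 10.3 ± 3.47 and 16.5 ± 2.55 FPKM. Single-exon transcripts in growth amounted to 0.18 FPKM for 5430431A17Rik and 1.46 FPKM for Gm38534, and there were none for Gm32618. 4930447F24Rik and Gm13398 were lower, with at most 14.3 ± 4.01 and 9.09 ± 1.68 FPKM. All 6 were called higher at 60 h and at 168 h than in growth, which for spliced transcripts follows from how they were chosen. The calls also stood over the union of their exons, where single-exon transcripts in growth are counted. That count includes the spliced fragments by which the genes were chosen, so it is not separate support. The spliced transcripts rest on the following junctions, 15 bases of the upstream exon in lower case and 15 of the downstream exon in capitals, from GENCODE transcripts.
Gm28653: gcaacttgtccccagGCTTGGACAAGTGGT
5430431A17Rik: ccccagacacagcggGTGCCCCATCTTCTT
Gm38534: aatcacctactgaatGTCACTGCTCCTCGA
Gm32618: gtgtcctcagagacgCATTATTTCAGTGCC
The assembled intron between them was 11608 bases long in Gm28653, 102 in 5430431A17Rik, 341 in Gm38534 and 14133 in Gm32618, each the length of the annotated one.

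Among genes assembled in both libraries, Gm14635 had the largest log2 ratio at 60 h, 3.24. It lies on chrX:11916933-11932162 and had 0.570 ± 0.806, 13.9 ± 1.42, 10.2 ± 1.80 and 4.62 ± 0.865 FPKM in the order of time, highest at 60 h and lower by 168 h, with no call between neighbouring later times. Its growth value rests on 2 fragments. B230206L02Rik had 3.54 ± 1.05, 14.2 ± 1.66, 19.6 ± 2.72 and 26 ± 2.32 FPKM, higher in each later library, and a log2 ratio of 2.57 at 168 h. A930005H10Rik had the same order, with overlapping limits at 60 and 120 h, at 4.09 ± 1.20, 16 ± 1.99, 17.7 ± 3.02 and 26.7 ± 2.63 FPKM, and part of its exons overlaps a coding gene. Gm14221, 2310015A10Rik, C030037D09Rik, 5430405H02Rik and 2810468N07Rik were also called higher at 60 h, with log2 ratios from 1.44 to 1.63. Their highest level in any library was 6.42 FPKM, in Gm14221, and the call of C030037D09Rik was lost over the union of its exons (0.71). 1810032O08Rik had 5.63 ± 0.621 FPKM in growth and 27.3 ± 2.83 at 168 h, but its call was lost, at a log2 ratio of 0.76, when all fragments over the union of its exons were counted.

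Several abundant members were lower after the switch. AA465934, on chr11:83105289-83108138, had 155 ± 8.52, 58 ± 4.12, 69.9 ± 6.41 and 34.8 ± 3.32 FPKM. Its log2 ratio was -1.41 at 60 h and -2.12 at 168 h against growth, and 1 of its introns was matched by length alone. Lockd, a noncoding gene downstream of the Cdk inhibitor gene Cdkn1b, had 50.1 ± 3.76, 24.8 ± 2.23, 18.8 ± 2.97 and 5.55 ± 1.17 FPKM. It fell just short of a call at 60 h (log2 ratio -0.98) and was called lower at 168 h (-2.96), each library being lower than the one before. Cdkn1b itself had 12.1 ± 0.980, 16.4 ± 0.839, 17.4 ± 1.34 and 23.3 ± 2.54 FPKM, in the other direction. The junction of Lockd, shown because its call rests on 1 intron of 22045 bases, reads as follows.
Lockd: ccctgtcttggaaagGAGGCTGCTCACAGC
AU020206, on chr7:82913924-82926972, had 36.1 ± 2.15, 10.3 ± 0.694, 8.11 ± 1.67 and 1.41 ± 0.451 FPKM, the steepest fall by 168 h among the annotated genes named here and assembled in both libraries (log2 ratio -3.95). The ratio over the union of its exons was -0.76 at 60 h, short of a call, and -2.18 at 168 h. 3300005D01Rik had 33.5 ± 3.10, 8.06 ± 1.22, 8.77 ± 1.47 and 6.41 ± 0.892 FPKM, with most of the difference between growth and 60 h. 2810408I11Rik went from 9.97 ± 1.49 FPKM in growth to 3.37 ± 0.668 at 60 h and 0.834 ± 0.446 at 168 h.

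**Figure D4:**
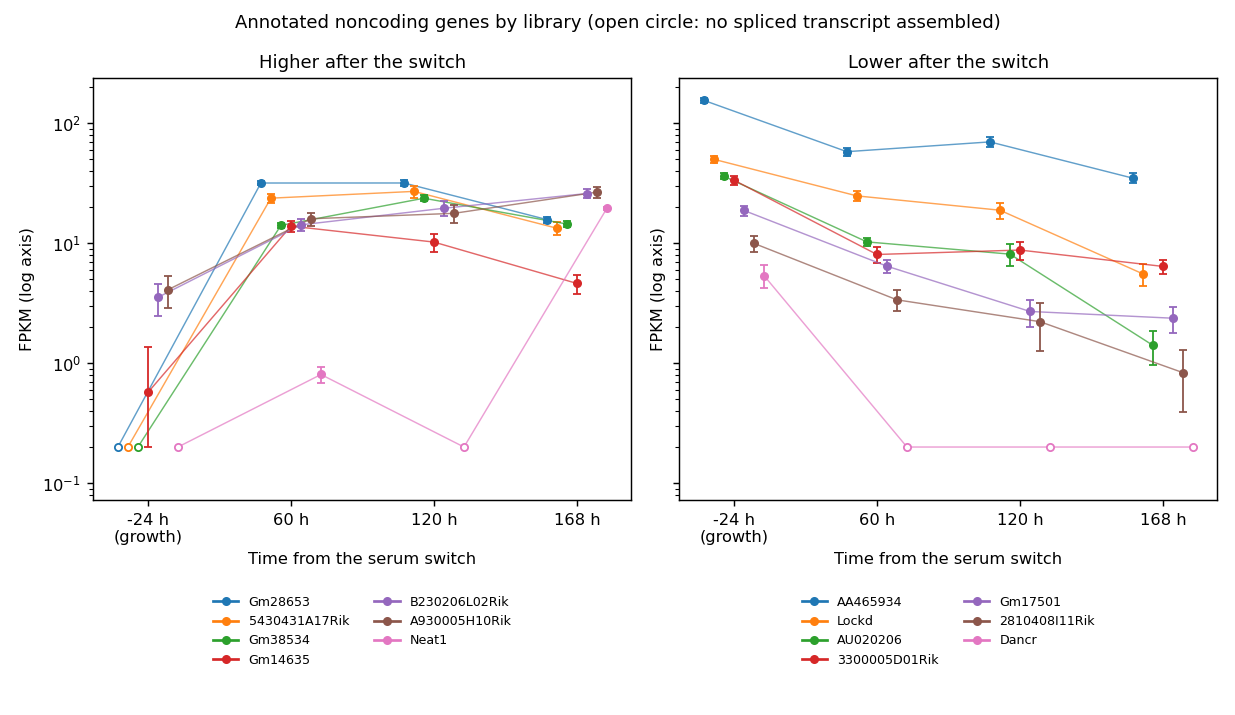
FPKM (log axis) in the 4 libraries of 7 annotated noncoding genes that were higher in later libraries (left) and 7 that were lower (right). Bars reach to the deposited limits, cut at 0.2 FPKM, and open circles mark libraries without a spliced transcript. AA465934 falls from 155 to 34.8 FPKM, and Neat1 stands high at 168 h alone.

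The later steps gave fewer calls among genes assembled in both libraries. From 60 to 120 h 37 of 480 (7.71%) were called higher and 45 (9.38%) lower, beside 7.72% and 7.26% of all 14295 genes and loci. With the libraries scaled to equal totals the split was 25 higher and 50 lower. Of the 266 assembled in both libraries 13 (4.89%) were higher and 3 (1.13%) lower, beside 5.8% and 2.31% of all 11762. From 120 to 168 h 52 of 467 (11.1%) were called higher and 46 (9.85%) lower, beside 6.79% and 7.96% of all 14058. Of the 249 assembled in both 3 (1.2%) were higher and 9 (3.61%) lower, beside 2.18% and 5.58% of all 11677. Over the whole course, 168 h against growth, 106 of 463 (22.9%) were called higher and 64 (13.8%) lower, beside 18.1% and 19.2% of all 14221. Of the 176 assembled in both 20 (11.4%) were higher and 24 (13.6%) lower, beside 11.7% and 19% of all 10916. Comparisons that share a library are not independent of each other. Neat1, described below, had the highest level at 168 h among the annotated noncoding genes that were not assembled at 120 h.

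2410006H16Rik, a host of small nucleolar RNA, had 39.2 ± 1.75, 47.3 ± 1.42, 53.7 ± 2.17 and 83.1 ± 2.02 FPKM, and was called higher at 168 h than in growth (log2 ratio 1.07). 1110038B12Rik stood at 102 ± 6.71, 74.8 ± 3.65, 125 ± 11 and 104 ± 5.05 FPKM, with no call. Gm28609, 1700022N22Rik and Gm45890 were highest at 120 h, with 8.36 ± 3.87, 5.90 ± 2.27 and 5.56 ± 0.900 FPKM, and were called lower at 168 h. The calls at 168 h, taken over the union of exons, stood for Gm45890 and were lost for Gm28609 and 1700022N22Rik. Gm4285, whose exons overlap Tpt1, had 1.98 ± 0.910 FPKM in growth and 11 ± 7.54 at 168 h, and was called higher (log2 ratio 2.01). Against 120 h, where it had 1.64 ± 4.43 FPKM, the limits overlapped.

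Of the 31 genes assembled in growth alone, the 6 with the highest levels were Gm35037 (5.69 ± 2.68 FPKM), Dancr, 4933407K13Rik (3.84 ± 1.34 FPKM), 6530402F18Rik, Gm19412 and Ptgs2os. Ptgs2os, with 2.11 ± 0.921 FPKM, starts 162 bases from Ptgs2, the inducible cyclooxygenase gene. Ptgs2 was assembled in every library, with 18.2 ± 0.854, 8.58 ± 0.454, 12 ± 0.899 and 14.1 ± 0.785 FPKM. 5031425E22Rik and Platr3 fell from 6.55 ± 1.93 and 5.94 ± 2.90 FPKM in growth to 0.834 ± 0.310 and 0.734 ± 0.519 at 60 h. Platr3 was still called lower at 60 h over its exon union (-1.04), and 5031425E22Rik was not (-0.78).

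Of 42 names of noncoding genes studied in muscle, 9 were matched to an assembled gene and 7 reached 2 FPKM. AL805899.1, with 2.33 ± 0.473 FPKM at 168 h alone, was not matched to the list's Mir31hg and is not counted. At 60 h 2 of the 9 were called higher (Gm28653 and 2310001H17Rik) and 1 lower (Lncpint), beside 14.1% and 13.5% of all genes and loci. Of the 5 assembled in both libraries 0 were called, beside 7.84% higher and 13.3% lower of all such genes and loci. The median log2 ratio of the 9 was 0.67, beside -0.08 for all. At 168 h 3 were called higher, Neat1 with Gm28653 and 2310001H17Rik, and Lncpint lower, beside 18.1% and 19.2% of all. Of the 4 assembled in both 0 were called, beside 11.7% higher and 19% lower of all such genes and loci. 2310001H17Rik was not assembled in growth and had 2.23 ± 0.932, 3.65 ± 1.25 and 5.88 ± 1.23 FPKM later. It was called at 168 h and not at 60 h when all fragments over its exons were counted. Bvht (Braveheart), known from heart development, had 4.63 ± 1.14, 7.97 ± 0.693, 11.9 ± 1.90 and 3.74 ± 0.484 FPKM, highest at 120 h. Its call of lower from 120 to 168 h was lost over the union of its exons. Lncpint, which its name ties to p53, had 1.25 ± 0.523 FPKM in growth and 1.30 ± 1.60 at 120 h and was not assembled at 60 or 168 h, and over the union of its exons stayed under 1 FPKM in every library, too low for a call. Tug1, Pvt1 and 1600020E01Rik were called in neither direction against growth, except that Tug1 was lower at 168 h over the union of its exons (-1.09). Carmn, the host of Mir143 and Mir145 in smooth muscle, stayed at or under 0.804 ± 0.719 FPKM.

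Of 43 names of nuclear, p53-linked and growth-linked noncoding genes, 17 were assembled and 14 reached 2 FPKM. At 60 h 0 were called higher and 3 lower (Dleu2, Lncpint and Dancr), beside 14.1% and 13.5% of all genes and loci, with a median log2 ratio of -0.26 beside -0.08. Of the 14 assembled in both libraries 0 were higher and 1 lower, beside 7.84% and 13.3% of all such genes and loci. Neat1 had 0.805 ± 0.120 FPKM at 60 h and 19.6 ± 0.570 at 168 h in spliced transcripts, and none in growth or at 120 h. Single-exon transcripts over its exons gave 6.55, 0, 5.60 and 9.11 FPKM in the order of time, so RNA of the locus was present in growth. Over the union of its exons Neat1 stood at 0.33, 0.37, 0.61 and 12.1 FPKM, again highest at 168 h. Dancr had 5.38 ± 1.15 FPKM in growth and no spliced transcript later, where single-exon transcripts held 1.32, 2.66 and 1.62 FPKM. Its difference at 60 h was short of a call (-0.93) over the union of its exons. Trp53cor1 (lincRNA-p21), transcribed away from the Cdk inhibitor gene Cdkn1a, had 1.08 ± 0.814, 2.32 ± 0.458, 3.09 ± 0.754 and 2.59 ± 0.471 FPKM. This was no call, while Cdkn1a went from 189 ± 4.41 FPKM in growth to 1276 ± 6.94 at 60 h. Trp53cor1 was called higher over the union of its exons, with a log2 ratio of 1.36.
Zfas1, a host of small nucleolar RNAs, was the most abundant gene of this list and was not called in any comparison, with 209 ± 8.51, 175 ± 5.15, 191 ± 8.49 and 218 ± 6.18 FPKM. Gm14005 (Morrbid), upstream of the death gene Bcl2l11, and Pvt1, downstream of Myc, were also within 2-fold on the log2(FPKM + 1) scale in every comparison. Pvt1 had 6.76 ± 1.32, 5.71 ± 1.14, 7.00 ± 2.12 and 11.3 ± 1.46 FPKM, while Myc had 31.4 ± 5.00 in growth and 18.1 ± 1.83 at 168 h.

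Of 21 names linked to X inactivation and imprinting, 5 were assembled. At 60 h 1 (Jpx) was called higher and 0 lower, beside 14.1% and 13.5% of all genes and loci. None of the 3 assembled in both libraries was called, beside 7.84% higher and 13.3% lower of all such genes and loci. Xist had 4.29 ± 0.484, 5.42 ± 0.398, 4.65 ± 0.785 and 4.55 ± 0.382 FPKM, with overlapping limits between growth and 168 h. Over the union of its exons it was called higher at 60 h (1.13) and at 168 h (1.01) than in growth. Firre, an X-linked nuclear RNA, had 2.78 ± 0.817, 5.90 ± 1.08, 14 ± 2.76 and 7.27 ± 0.984 FPKM and was called higher at 168 h than in growth. That ratio was 0.20 over the union of its exons, with no call. Jpx, which lies next to Xist and activates it, was called higher at 60 h, with 1.27 ± 0.524 FPKM and no spliced transcript in growth, and this call was lost over the union of its exons (0.64). Of 36 names of homeobox and developmental antisense transcripts, 5 were assembled, 1 called higher at 60 h (Hoxaas2) and 1 lower (Hoxa11os), against the same background. Of the 4 assembled in both libraries 0 were higher and 1 lower, beside 7.84% and 13.3% of all such genes and loci. Hoxaas2 had 1.42 ± 0.502 FPKM at 60 h, and 0.80 FPKM over the union of its exons, too low for a call. Hoxa11os, which overlaps Hoxa11 on the other strand, had 20.7 ± 2.05, 8.29 ± 1.43, 9.93 ± 1.98 and 11.2 ± 1.34 FPKM. Hoxa11 had 13.4 ± 1.52, 6.06 ± 0.401, 9.64 ± 1.07 and 10.1 ± 0.659 FPKM, with the same order of libraries. The labels' protocol describes no step that marks strand, so fragments of these 2 genes cannot be told apart where their exons overlap.

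Many members start beside a protein-coding gene. Of the 572 genes, 141 (24.7%) form a divergent pair with their nearest protein-coding gene, starting within 1 kb on the opposite strand, and 98 (17.1%) overlap one on the opposite strand. Over the 66 divergent pairs in which both genes were assembled in growth and at 60 h, the log2 ratios of member and neighbour had a Pearson r of 0.46. Without the 2 pairs farthest from the median it was 0.37, and only 34 of the 66 pairs had the same sign. The pairs share 2 libraries and their depth, so this is a description. For members apart from their neighbour it was 0.08 over 47 pairs on opposite strands and 0.15 over 42 on the same strand, and for members that overlap a neighbour on the opposite strand it was -0.11 over 27. At 168 h against growth the divergent pairs gave 0.32 over 57 pairs, and 0.18 without the 2 farthest, while the overlapping pairs gave 0.44 over 23.

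Of the 9 divergent members called at 60 h, 5 had a neighbour called the same way and 0 one called the opposite way. Over all 66 pairs 3 neighbours were called higher and 5 lower. At 168 h 12 divergent members were called, of which 4 had a neighbour called the same way and 2 one called the opposite way (A930005H10Rik with Dph5 and 5033430I15Rik with Atxn1), and over all 57 pairs 7 neighbours were called higher and 8 lower. Gm17501 starts 715 bases from Ccn1, a secreted matrix protein of the growth response. Gm17501 had 18.8 ± 1.74, 6.43 ± 0.804, 2.70 ± 0.691 and 2.37 ± 0.594 FPKM. Ccn1 had 218 ± 3.92, 34.1 ± 1.19, 36.9 ± 1.75 and 79.3 ± 1.91 FPKM, so both were highest in growth, and Ccn1 alone was higher again at 168 h. Map2k3os and Map2k3, a kinase of the p38 pathway, were both called lower, Map2k3os from 6.50 ± 0.917 to 2.66 ± 0.451 FPKM and Map2k3 from 132 ± 2.93 to 42.9 ± 1.28. Gm14230 and Tgif2 were likewise both lower at 60 h. In the other direction, 2810468N07Rik had 0.996 ± 0.630 FPKM in growth and 4.43 ± 0.537 at 60 h, and Sox8, a transcription factor gene 113 bases away, 1.28 ± 0.621 and 8.16 ± 0.479. C030037D09Rik went from 0.966 ± 0.395 to 4.84 ± 1.004 FPKM and Msi2, an RNA-binding protein, from 16.4 ± 2.95 to 51.2 ± 2.58. A930005H10Rik and Dph5 went apart by 168 h, where the member was called higher and Dph5, with 11.8 ± 1.05 FPKM in growth and 4.74 ± 0.553 at 168 h, lower.

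**Figure D5:**
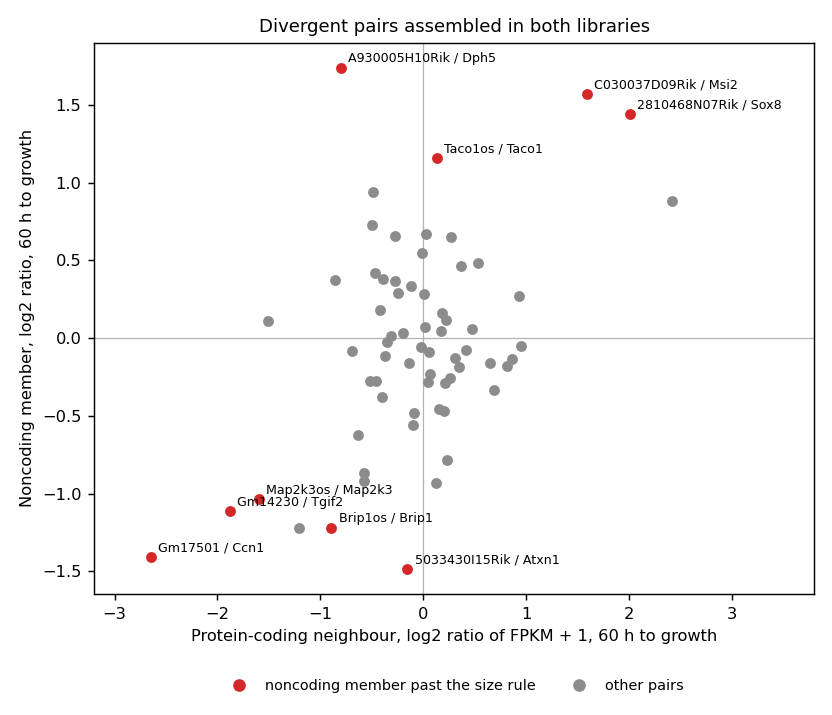
Log2 ratio of FPKM + 1, 60 h to growth, of noncoding members (vertical axis) against their divergent protein-coding neighbours (horizontal axis), for the 66 pairs assembled in both libraries. Red points are the 9 members past the size rule, and 5 of them, from Gm17501 with Ccn1 to 2810468N07Rik with Sox8, have a neighbour past it in the same direction.

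Promoters of the members were examined in the RefSeq windows around each start, in 451 promoters of 364 annotated noncoding genes (GRCm38.p6). A CpG ratio of at least 0.6 was found in 44.1% of them, beside 67.0% of promoters of protein-coding genes and 35.8% of all 32851 promoters of the table. The E-box CAGCTG, a sequence that MyoD and myogenin bind, was present in 17.3% of 75 promoters of genes called higher at 60 h and in 19.4% of 36 of genes called lower. It was in 16.3% of all promoters and 16.6% of those of annotated noncoding genes, counted on both strands. CACCTG, another E-box searched on both strands, was in 17.3% and 16.7%, beside 20.2% of all promoters. The letters CATTCC, bound by TEAD factors and also searched on both strands, were in 25.3% (19 of 75) and 13.9% (5 of 36), beside 14.7% of all promoters and 17.1% (77 of 451) of those of annotated noncoding genes. CTAAAAATA, a site for MEF2, was in 0 of the 75, beside 0.52% of all promoters and 1.11% (5 of 451) of those of annotated noncoding genes. The promoter of Gm17501 on chr3:145649827-145650126 is shown because this gene and Ccn1 were both lower after the switch, with the CATTCC motif in capitals. The promoter of Gm14635 on chrX:12354947-12355246, minus strand, is shown with CAGCTG in capitals. It was picked for the largest ratio at 60 h among genes assembled in both libraries.
Gm17501: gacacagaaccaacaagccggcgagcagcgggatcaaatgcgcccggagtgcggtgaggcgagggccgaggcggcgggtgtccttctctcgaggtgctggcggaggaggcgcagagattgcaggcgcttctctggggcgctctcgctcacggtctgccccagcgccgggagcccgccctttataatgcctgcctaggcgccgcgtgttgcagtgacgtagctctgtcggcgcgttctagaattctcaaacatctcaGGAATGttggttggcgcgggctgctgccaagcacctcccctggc
Gm14635: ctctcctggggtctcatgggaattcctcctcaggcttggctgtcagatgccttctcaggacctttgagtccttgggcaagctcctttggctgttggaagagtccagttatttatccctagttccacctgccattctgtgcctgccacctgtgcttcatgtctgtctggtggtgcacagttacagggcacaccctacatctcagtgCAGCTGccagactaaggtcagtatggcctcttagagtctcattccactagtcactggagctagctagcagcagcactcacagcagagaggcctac
The motif in capitals is 6 bases from the start in Gm17501 and 45 bases from it in Gm14635. The promoter of Gm14635 also holds, in lower case, 1 CATTCC at 6 bases from the start and 2 CACCTG, the nearer at 106 bases.

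The annotated noncoding genes were short and had few exons. In 332 of the 572 (58.0%) no assembled transcript had more than 2 exons, beside 10.7% of protein-coding genes. Their longest annotated transcripts had a median of 1413.5 bases and 48.1% GC, beside 3436 bases and 50.0% GC for protein-coding genes. The median longest open reading frame was 71.5 codons against 419 codons, and 130 of the 572 (22.7%) held one of at least 100 codons. Among the genes named above, that frame had 88 codons in Gm28653, 60 in Gm14635, 117 in 5430431A17Rik and 139 in Gm38534. Exons of 117 members (20.5%) overlapped those of a protein-coding gene.

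The 26 genes that RefSeq lists as protein-coding are kept apart. Cct6a, a subunit of the cytosolic chaperonin, was the most abundant, with 345 ± 6.32, 157 ± 3.23, 124 ± 4.34 and 80.5 ± 2.46 FPKM, and was called lower at 60 h. Ndufb1-ps, Ifi30, Tmem134 and 1810058I24Rik were within 2-fold of growth at each later time. At 60 h 4 of the 26 were called higher than growth and 2 lower, beside the shares of all genes and loci given above. The 4 were not assembled in growth. Of the 15 assembled in both libraries 0 were higher and 2 lower, beside 7.84% and 13.3% of all such genes and loci.

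The 2388 loci that matched no annotated gene are a mixed set. Of these, 2176 had 2 exons, 1169 were assembled in 1 library alone, and 1348 overlapped the span of a named gene. At 60 h 414 of 1749 (23.7%) were called higher than growth and 236 (13.5%) lower, and over the 525 assembled in both libraries 46 (8.76%) and 58 (11%), beside the shares of all genes and loci given above. Among them were 48 loci of at least 100 FPKM, such as chr6:4487347-4488039 with 289 ± 8.49 FPKM at 60 h. Of the 48, 0 both met the stricter support described next and lay in a gap without annotated genes other than those that flank it. Whether they are parts or copies of known genes was not tested.
Support was stricter for 449 loci. Their intron was seen in 2 or more libraries, their span overlapped no named gene, and their exons overlapped no other such locus on the opposite strand. Of these, 26 lay between named introns with no other annotated gene in the gap. The genes that hold those introns were not counted, so their exons may reach into it. In these 26 the highest level had a median of 0.93 FPKM and ranged from 0.45 to 95.4 FPKM, and 7 formed a divergent pair with a protein-coding gene. Of the 23 assembled in growth or at 60 h, 2 were called higher at 60 h and 1 lower, beside 14.1% and 13.5% of all genes and loci. These 3 were among the 10 assembled in both libraries, where the shares of all were 7.84% and 13.3%.
chr17:35133554-35137473, with 2 exons on the minus strand, starts 508 bases from Vars, the gene of valyl-tRNA synthetase. It had 95.4 ± 2.04, 33.6 ± 0.941, 27 ± 1.23 and 6.10 ± 0.416 FPKM, called lower at 60 h and again at 168 h against 120 h. Vars had 207 ± 7.00, 76.5 ± 1.24, 64.9 ± 4.57 and 77 ± 4.01 FPKM, lower after the switch too, but not lower again at 168 h. chr11:31445735-31449654, also of 2 exons, lies 115458 bases from Bod1, its nearest assembled protein-coding gene. It had 0.802 ± 0.414, 32.2 ± 1.18, 24.2 ± 1.46 and 16.2 ± 0.896 FPKM, with growth far below the 3 later libraries. chr6:145820696-145866609, with 4 exons, starts 6586 bases from Bhlhe41, a repressor of transcription. It had 0.447 ± 0.447, 7.62 ± 1.37, 14.7 ± 2.53 and 17.6 ± 2.11 FPKM, and Bhlhe41 5.58 ± 0.926, 17.4 ± 0.666, 16 ± 1.52 and 17.1 ± 0.819 FPKM. Both were low in growth, and the limits of the locus at 120 and 168 h overlapped. No sequence is printed for these loci, since the sources used here do not give their genome build.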

How the data were processed

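Polyadenylated RNA of C2C12 cells was sequenced in 4 libraries, 1 for each time point. The authors deposited, per the file headers and labels, transcript models with a value in FPKM or RPKM (fragments or reads per kilobase of transcript and library size) and its confidence limits for each transcript. The submitters' processing notes name TopHat 1.0.13 and Cufflinks 0.8.0. No source used here states a genome build, so coordinates are those of the files, and sequences come from RefSeq (GRCm38.p6) or GENCODE M21.

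Of 137519 introns, 122633 were matched to GENCODE M21 by runs of exon and intron lengths, 4980 by length and distance and 598 by length alone, and 8969 were not named. With all lengths shifted by 7 bases, 0.00686% and 0.439% of 14567 introns matched by the last 2 ways. The level of a locus is the sum over its spliced transcripts, with limits added in quadrature, and 0 where none was assembled. Log2 ratios use a pseudocount of 1 FPKM. The size rule asks for 2-fold, 1 FPKM in the higher library and limits that do not overlap, which cover counting error at most. Where no spliced transcript was assembled the limit is 0 as well, so in such a library not even counting error is covered. There are no replicates, so no test was run. Tested on simulated data for 60 h against growth (11932 genes), the rule recovered 28.8% of 2-fold, 97.5% of 3-fold, 94.6% of 4-fold and 100% of 8-fold changes, and called 6 of 11732 unchanged genes. Most of these genes were not noncoding loci, of which there are 2986 in all. Rates for the noncoding genes alone, which had lower levels, are not given, so these rates may not hold for them. Fewer genes were simulated than the 14275 genes and loci compared. No rate is given for genes without a spliced transcript in growth, from which most noncoding calls of higher at 60 h came.

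Genes named in the text are those of at least 2 FPKM with the largest ratios (8 in each direction at 60 h, 4 for later comparisons), the 10 highest, the 6 highest in growth alone, the 6 highest in the 3 later libraries alone, and list members. For loci that match no gene these numbers are 4, 2, 5, 3 and 3, and the 3 loci between named introns that were called are given. The members and lists were chosen with earlier results of these data known. Scripts used Python 3.11.15, NumPy 2.4.6 and matplotlib 3.10.9.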

Additional observations from a re-analysis of the deposited data

Results flagged for a closer look

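Signal was present in single-exon transcripts, which the comparisons of spliced transcripts do not use. Among annotated noncoding genes with no spliced transcript in a library, such transcripts held more than 3 fragments, the number that a count of 0 allows, in 68 genes in growth, 38 at 60 h, 72 at 120 h and 54 at 168 h. Gm28653 had 4.10 FPKM of this kind in growth. Neat1 had 6.55 FPKM in growth and 5.60 FPKM at 120 h. Dancr had 1.32, 2.66 and 1.62 FPKM at 60, 120 and 168 h.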

How the results depend on the processing

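The counts of called genes depend on what is counted. For the steps growth to 60 h, 60 to 120 h, 120 to 168 h and the whole course from growth to 168 h, the calls were 783, 626, 596 and 918 over all noncoding loci and 127, 82, 98 and 170 over annotated noncoding genes. In that order, they were of 2242, 2294, 2139 and 2163 noncoding loci tested, and of 467, 480, 467 and 463 annotated genes. Of all multi-exon genes and loci, 14.1%, 7.72%, 6.79% and 18.1% were called higher and 13.5%, 7.26%, 7.96% and 19.2% lower. The alternatives below are given as counts, without shares over all genes. In the same order of steps, a minimum of 5 FPKM left 279, 220, 179 and 317 of all loci, and 30, 14, 9 and 46 annotated genes. Loci assembled in both libraries gave 137, 77, 67 and 160, and 31, 16, 12 and 44 annotated genes. Loci with no overlap with a coding gene gave 316, 209, 226 and 390, and for annotated genes 53 and 63 for the steps 60 to 120 h and 120 to 168 h. Loci with introns named by runs, or with 3 exons, gave 138, 64, 77 and 171, and 58, 25, 39 and 73 annotated genes. A 4-fold threshold gave 288, 246, 211 and 350, and 24, 10, 10 and 45 annotated genes. These alternatives count fewer loci or ask for more by construction. 3 alternatives were chosen after seeing the data: counting all fragments over the union of exons, adding transcripts that share a splice site, and keeping loci shown in 2 or more libraries apart from other loci. The last gave 256, 157, 176 and 339 of all loci. The union of exons gave 79, 38 and 40 annotated genes in the first 3 comparisons. The other counts, under a pseudocount of 0.1 FPKM, no minimum, either rescaling, FPKM through the introns or shared splice sites, stayed within 1.5 times.

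Among single loci, 7 ratios changed sign, and the cause was not tested. Over the union of exons Trerf1 had a log2 ratio of -0.0188 for 120 h against 60 h and 0.32 for 168 h against 120 h, and through its introns 0.43 for the latter. At 60 h against growth the union gave -0.40 for chr13:44964939-44965396, -3.04 for chr7:52713321-52715216 and 0.75 for chr8:74145697-74150317, and the last had -0.61 for 120 h against 60 h. Of the other values under alternatives, with the counts of calls above included beside single loci, 1035 stayed the same, 65 lost their call, 18 gained one and 39 moved. With 1 library for each time point, no left-out replicate can be computed. No paired analysis was possible because the labels give no replicates.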
